A study of Ovis aries with 15 samples.

Results

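The HOX genes of the 4 clusters were followed in the mammary gland of sheep between late pregnancy and lactation. A row of the deposited table counted as a member when its symbol read HOXA, HOXB, HOXC or HOXD followed by a number only, which gave 37 of 24691 features. They were 9 HOXA, 10 HOXB, 9 HOXC and 9 HOXD genes. RNA came from needle biopsies of mammary parenchyma of Romney ewes, taken around day 135 of gestation and again around day 15 after birth. It was pooled over ewes into 9 late pregnancy and 6 lactation libraries. All ewes were kept alike on pasture, and they differed in the feed their own dams had been given from day 21 to day 50 of gestation, which was sub-maintenance, maintenance or ad libitum. All these dams were on maintenance feed later in gestation, and each dam feed group held 3 late pregnancy and 2 lactation pools. By the labels a pool of late pregnancy held 3 ewes and a pool of lactation 2, whereas the study's methods give the same number for both, so how many ewes stand behind a lactation library is open. A biopsy holds epithelium, connective tissue, vessels and immune cells together, so the values are those of a mixture.

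HOX genes encode homeodomain transcription factors that lie in clusters and give cells their position along the body axis. Genes at the same place in different clusters are paralogues and carry the same number, with low numbers acting toward the head and high numbers toward the tail and limbs. In adult tissues part of the set stays expressed as a record of position, often in connective tissue, and in mice the genes of paralogue group 9 act together in the growth of the mammary gland in pregnancy. HOX proteins bind DNA with TALE cofactors of the PBX and MEIS families, and Polycomb and Trithorax proteins hold their clusters silent or active. In the deposited coordinates the HOXD genes lay on chromosome 2 from 132820016 to 132914056, the HOXC genes on chromosome 3 from 132313715 to 132429251, the HOXA genes on chromosome 4 from 68833423 to 68931809, and the HOXB genes on chromosome 11 from 37337136 to 37506587. The labels name the build as Oar v3.1.

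Depth was 7597938 to 19823166 reads on genes per library before birth and 10352962 to 25679416 after it. Milk protein genes took 13.7 to 23.4% of the counts in late pregnancy and 71.3 to 75.8% in lactation. HOX exons received 194 to 605 reads per library in late pregnancy and 49 to 133 in lactation, so the largest count of any member in 1 library was 111 and 19, respectively. Of the reads on HOX exons 99.95% were placed at 1 site only, so reads shared between paralogues played little part. RPKM, reads scaled by exon length and by the library's reads, is used below to set genes side by side. It is divided by a total that the milk protein reads fill in lactation, so the states are compared by CPM, reads scaled by the TMM size of the library, a scaling set by the bulk of the genes.

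HOX transcripts were scarce in the gland, and the ones best covered were in the middle and the posterior part of the clusters. With a mean RPKM of at least 1 as the mark of expression, 5 members were expressed in late pregnancy and 0 in lactation. The 5 were HOXD8 (2.98 ± 0.40 RPKM, SD, n = 9), HOXD9 (2.22 ± 0.56), HOXA9 (2.12 ± 0.41), HOXD4 (1.78 ± 0.46) and HOXB7 (1.30 ± 0.32). Within this order HOXD9 and HOXA9 differed by less than their SD, as did HOXA9 and HOXD4, and the ranges of HOXD8 (2.29 to 3.49 RPKM) and HOXD9 (1.45 to 3.23) overlapped. HOXD8, the highest of the family, ranked 9626 among all features by mean RPKM in late pregnancy. A mark of 0.5 RPKM would have given 14 members in late pregnancy and still 0 in lactation. With the milk protein reads left out of the total, 9 and 2 members reached 1 RPKM, and the 2 in lactation were HOXA9 and HOXD8.

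**Figure D1:**
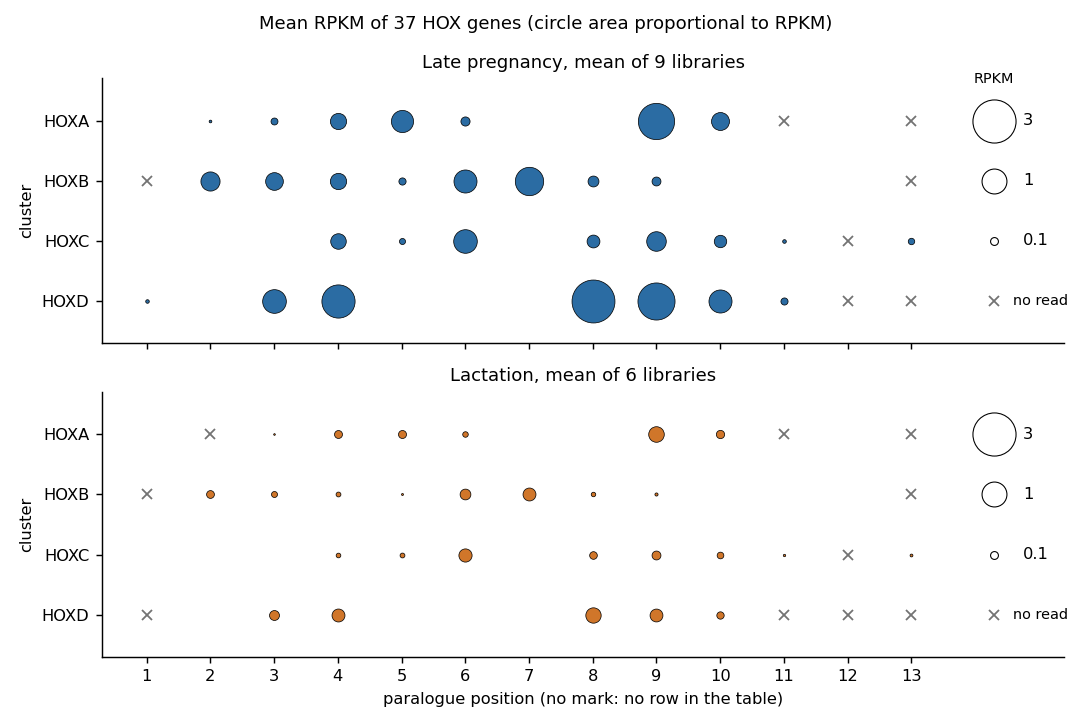
Mean RPKM of each HOX gene by cluster (rows) and paralogue position (columns), in 9 late pregnancy libraries above and 6 lactation libraries below, with circle area proportional to RPKM and a cross for no read. The largest circles are HOXD8, HOXD9, HOXA9 and HOXD4 in late pregnancy, and crosses fill most of positions 11 to 13.

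The plot of mean RPKM by position shows how unevenly the family was covered. The HOXD genes made up 45.2% of the summed HOX RPKM in late pregnancy, HOXA 20.9%, HOXB 20.9% and HOXC 13.1%. In lactation the shares were 35.2, 23.1, 21.4 and 20.3%. These shares depend on the annotated exon lengths, which ran from 429 to 3329 bases. By CPM, without length, the mean sums in late pregnancy were 7.74 for HOXD, 5.32 for HOXA, 2.93 for HOXB and 2.45 for HOXC. By position, the anterior genes 1 to 3 held 10.8% of the late pregnancy RPKM sum, the central genes 4 to 8 held 54.0% and the posterior genes 9 to 13 held 35.2%. Group 9 held 26.0% and its neighbour group 8 held 17.5%, most of it from HOXD8. Beyond position 10 little was left, with 13 reads for group 11 and 17 for group 13 over the 9 late pregnancy libraries.

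Of the 37 members, 7 had no read in any of the 15 libraries. These were HOXB1, the hindbrain gene at the anterior end of its cluster, and HOXA11, HOXA13, HOXB13, HOXC12, HOXD12 and HOXD13, genes of the posterior ends that pattern distal limb, tail and genital tract. Another 3 members, HOXA2, HOXD1 and HOXD11, had reads in late pregnancy only, with 2, 2 and 11 reads in all. No fold is given for them, since both states were at or near the floor of 3 reads.

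The summed CPM of all 37 members was lower in lactation than in late pregnancy in every library. It had a median of 17.7 CPM in late pregnancy (16.2 to 21.1) and of 11.0 CPM in lactation (9.09 to 12.4), a ratio of means of 1.70. In bulk tissue, fewer cells of a type and less RNA per cell cannot be told apart. By cluster, HOXD had 6.36 to 9.41 CPM in late pregnancy and 2.71 to 3.92 in lactation, with no overlap. HOXB was 2.13 to 3.55 CPM against 1.10 to 2.09, also apart, and HOXA was 4.24 to 6.28 against 2.11 to 4.40, with the edges overlapping. HOXC was 1.74 to 3.09 CPM against 1.52 to 2.82, ranges that overlap over most of their length. The ratios of means were 2.20 for HOXD, 1.68 for HOXB, 1.53 for HOXA and 1.16 for HOXC. These sums are descriptions, with no test, and the difference between clusters was not tested.

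**Figure D2:**
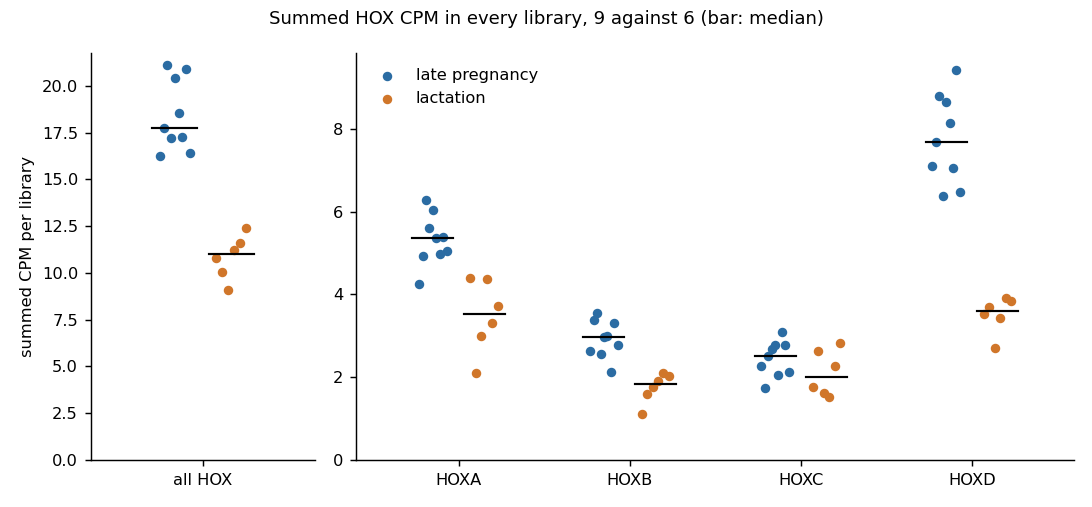
Summed CPM of all 37 HOX genes (left) and of each cluster (right) in every library, 9 of late pregnancy and 6 of lactation, with the median as a bar. The HOXD sums of the 2 states do not overlap (at least 6.36 against at most 3.92 CPM), and the HOXC sums overlap widely.

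Single members were compared by edgeR's quasi-likelihood test with Benjamini-Hochberg adjustment over all 13345 genes that passed its count filter. Of the 37 members 11 passed, and they passed through their late pregnancy reads, since 0 of them had 10 reads in every lactation library. A member that enters through 1 state is more likely to be high there, so the count of calls says little about the family. Of the 11, 6 were called lower in lactation, beside 35.2% of all tested genes called lower. None was called higher, by edgeR or by DESeq2, and 0 had an unadjusted p under 0.05 in that direction, beside 33.1% of all tested genes called higher. Of the 6, 4 were lower by more than 2-fold.

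HOXD8, a gene of the middle of its cluster, had the clearest difference. Late pregnancy libraries had 2.31 to 3.16 CPM (median 2.82, from 31 to 89 reads) and lactation libraries 0.543 to 1.98 CPM (median 1.15, from 4 to 10 reads). All 6 lactation libraries lay below the lowest late pregnancy library, which held for this 1 tested member only, beside 20.0% of all tested genes lower with no overlap. Its log2 change was −1.30 (SE 0.21, adjusted p = 1.6e-05, edgeR). It was called in every alternative that was run for it.

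HOXD10, whose loss in mice impairs lactation, had the largest change of a tested member. Before birth it stood at 0.517 to 1.78 CPM with a median of 0.914, and after it at 0.174 to 0.571 CPM with a median of 0.423, so that 5 of 6 lactation libraries were below the lowest late pregnancy library. This gave a log2 change of −1.59 (SE 0.39, adjusted p = 0.0013, edgeR), resting on 1 to 4 reads per lactation library.

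HOXD9, of the group that acts in the pregnant mammary gland, also fell. The median was 1.33 CPM in late pregnancy (0.905 to 2.03) and 0.70 CPM in lactation (0.190 to 0.949), and 5 of 6 lactation libraries were below the late pregnancy range. The log2 change was −1.14 (SE 0.28, adjusted p = 0.00139, edgeR).

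HOXD4, known for the patterning of the hindbrain and neck vertebrae, fell less. The median was 1.66 CPM in late pregnancy (0.904 to 2.29) and 0.828 CPM in lactation (0.220 to 1.39), with 3 of 6 lactation libraries inside the late pregnancy range. The log2 change was −0.76 (SE 0.29, adjusted p = 0.0235, edgeR). The call was lost without lactation replicate 1 (adjusted p = 0.0526) or 3 (adjusted p = 0.0668), and barely so without lactation replicate 2. HOXD3, its neighbour on the anterior side, stood at 0.506 to 1.14 CPM and 0.190 to 0.783 CPM in the 2 states. Its log2 change was −0.70 (SE 0.32) and was not called (adjusted p = 0.0612), but it was called without late pregnancy replicate 4 (adjusted p = 0.0353) or lactation replicate 5 (adjusted p = 0.0201). It was also called over all libraries with dam feed (adjusted p = 0.0419) or the lane in the column name (adjusted p = 0.0347) as a covariate.

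**Figure D3:**
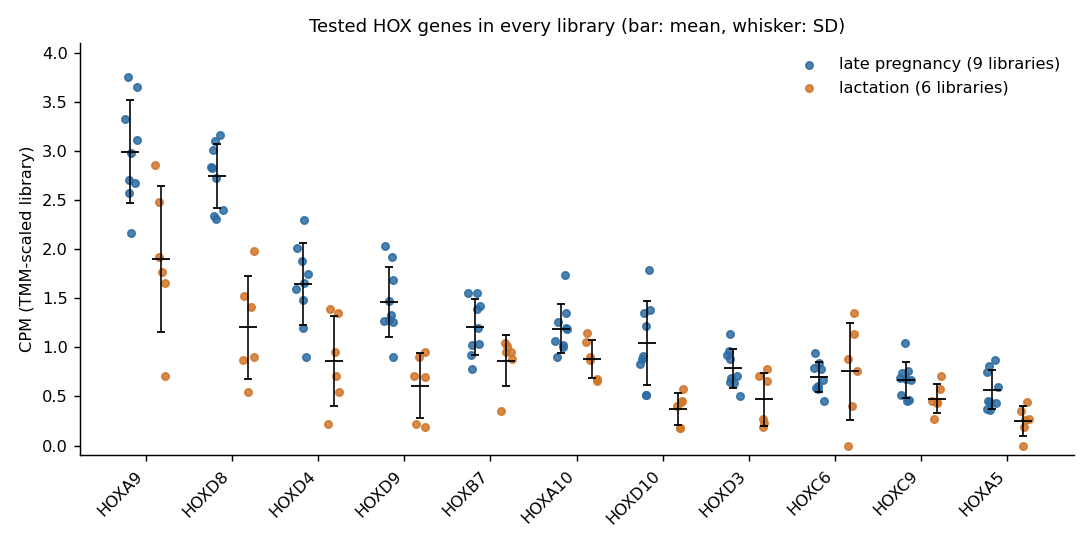
CPM of the 11 tested HOX genes in every library of late pregnancy (9, blue) and lactation (6, orange), with the mean as a bar and the SD as whiskers. HOXD8 is the member whose states do not overlap (at least 2.31 against at most 1.98 CPM), and HOXC6 in lactation spreads from 0 to 1.35 CPM.

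In the HOXA cluster, HOXA9 had the most reads of the family. The median was 2.97 CPM in late pregnancy (2.17 to 3.75) and 1.84 CPM in lactation (0.703 to 2.86), with 4 of 6 lactation libraries below the late pregnancy range. It changed by −0.70 on the log2 scale (SE 0.21, adjusted p = 0.00556, edgeR), and the call was lost with limma on the quantile-normalized RPKM (adjusted p = 0.0569).

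HOXA5, which acts in the lung and the mammary gland, was lower in lactation, at 0 to 0.44 CPM (median 0.266). In late pregnancy it stood at 0.366 to 0.874 CPM (median 0.453), and 5 of 6 lactation libraries lay below that range. Its log2 change was −1.27 (SE 0.43, adjusted p = 0.0137, edgeR), from at most 3 reads in any lactation library. It stood at the edge of the filter, and leaving out any 1 of 6 of the late pregnancy libraries took it out of the test. HOXA10, the gene of uterine receptivity, stood at 0.905 to 1.73 CPM against 0.659 to 1.14 and was not called (log2 change −0.44, SE 0.22, adjusted p = 0.0808). Upper quartile scaling gave a call for HOXA10 (log2 change −0.59, adjusted p = 0.0176, edgeR).

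In the HOXB cluster HOXB7, the 1 tested member, had the highest RPKM in both states. The median was 1.19 CPM in late pregnancy (0.784 to 1.55) and 0.951 CPM in lactation (0.352 to 1.04), and 1 of 6 lactation libraries lay below the late pregnancy range. It was not called (log2 change −0.41, SE 0.25, adjusted p = 0.146), and the interval of the change ran from −0.93 to 0.11. With upper quartile scaling HOXB7 was called lower (log2 change −0.56, adjusted p = 0.0441, edgeR), where the median of all tested genes was −0.18.

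In the HOXC cluster HOXC6, a thoracic gene, had the highest RPKM in both states, with 0.898 ± 0.220 RPKM in late pregnancy (n = 9) and 0.281 ± 0.184 in lactation (n = 6). By CPM the median was 0.665 in late pregnancy (0.457 to 0.941) and 0.820 in lactation (0 to 1.35), so the lactation libraries lay on both sides of the late pregnancy range. The log2 change was 0.23 (SE 0.32, adjusted p = 0.53, edgeR), with an interval from −0.43 to 0.90, and it was −0.0012 without lactation replicate 6. It was the 1 tested member with a change above 0, and with library size alone as the scaling it turned to −1.66, where the median of all tested genes was −1.94. HOXC9 stood at 0.457 to 1.04 CPM against 0.271 to 0.703 and was not called (log2 change −0.55, SE 0.30, adjusted p = 0.105). Under upper quartile scaling HOXC9 was called lower (log2 change −0.70, adjusted p = 0.0364, edgeR).

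**Figure D4:**
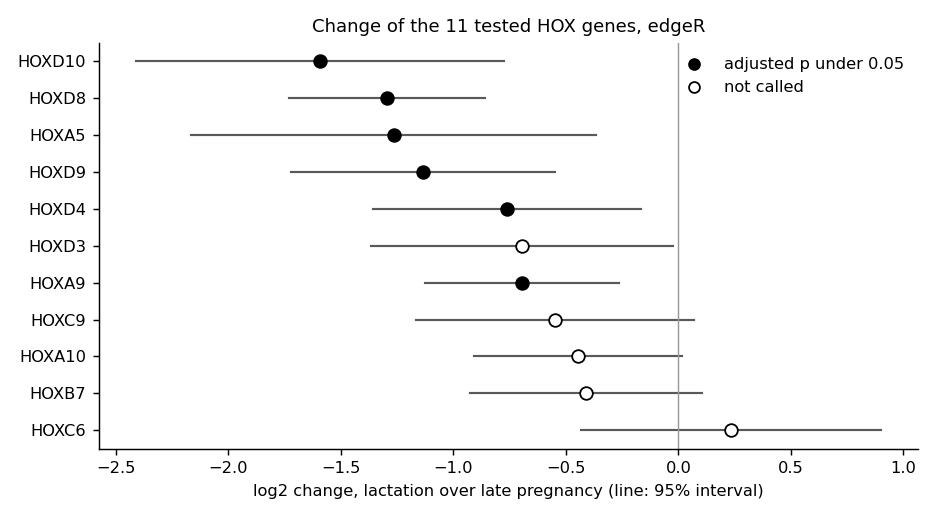
Log2 change from late pregnancy to lactation of the 11 tested HOX genes with its 95% interval, filled where the adjusted p was under 0.05. The 4 members furthest to the left, HOXD10, HOXD8, HOXA5 and HOXD9, lie below −1, and HOXC6 alone has a change above 0.

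The column names also carry a lane, 7 or 8, although the reads of every library came from both lanes. A split by this name is therefore a split of the libraries and cannot be read as a lane batch. Among libraries named for lane 7, HOXD8 (log2 change −0.97, adjusted p = 0.0189), HOXD9 and HOXD10 were called, and HOXA5, HOXA9 and HOXD4 were not. Among those named for lane 8, HOXD8 (−1.62), HOXA5, HOXA9 and HOXD3 were called, and HOXD4, HOXD9 and HOXD10 were not, all of them still below 0.

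Paralogue group 9 was present from all 4 clusters, though unequally. Its mean level per length in late pregnancy was 2.22 ± 0.56 RPKM for HOXD9, 2.12 ± 0.41 for HOXA9, 0.618 ± 0.176 for HOXC9 and 0.128 ± 0.085 for HOXB9 (SD, n = 9). HOXD9 and HOXA9 differed by less than their SD, and both lay above HOXC9, which lay above HOXB9. In lactation the order was HOXA9 at 0.392 ± 0.160 RPKM, HOXD9 at 0.267 ± 0.141, HOXC9 at 0.128 ± 0.037 and HOXB9 at 0.0159 ± 0.0180 (n = 6), where HOXA9 and HOXD9, and HOXD9 and HOXC9, differed by less than the SD of HOXD9. The summed group was at 4.24 to 6.35 CPM in late pregnancy and 2.29 to 3.52 in lactation, with no overlap. HOXB9 had 1 to 6 reads per library in late pregnancy and at most 1 in lactation, and was not tested.

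The other 19 members with reads did not pass the count filter. By reads pooled over each state, 16 of them had a lower CPM in lactation and 3 a higher one, HOXA6, HOXC5 and HOXC11, with 5, 3 and 1 reads in lactation. The most reads among the 19 were on HOXB6, at 0.183 to 0.665 CPM in late pregnancy and 0.190 to 0.703 in lactation, and on HOXA4, at 0.209 to 0.647 against 0 to 0.676, both overlapping. HOXC4 stood at 0.183 to 0.615 CPM against 0 to 0.338. HOXC8, which places mammary buds in mouse embryos, stood at 0.129 to 0.398 CPM against 0.0870 to 0.527, ranges that overlap widely. HOXC10 had 2 to 13 reads per library in late pregnancy and 0 to 4 in lactation. In a fit with no filter, 30 members gave a value, 25 of them below 0 and 5 above. There 7 were called lower, of which 6 were those called with the filter and the other was HOXC4, beside 27.3% of all genes fitted. A read count of this size leaves moderate changes of these members undetectable at this depth.

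Reads inside annotated introns gave another readout, and 3 members had enough of them for the test. HOXB4 had 14 to 45 intron reads per library in late pregnancy and 0 to 14 in lactation, with a log2 change of −0.89 (SE 0.33, adjusted p = 0.0252, edgeR). HOXA9 had 8 to 28 intron reads against 1 to 7 (log2 change −0.55, adjusted p = 0.227), and HOXB6 had 9 to 39 against 2 to 11 (log2 change −0.14, adjusted p = 0.718). So 1 of 3 was called lower, beside 29.0% of all genes tested on introns. The annotated span of HOXB4 runs from 37460283 to 37485131 and ends close before HOXB3, and the library kit does not mark strand, so reads there cannot be told apart from those of other or antisense transcripts within the span. The same limit holds for exon reads of members with antisense partners.

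Dam feed left no called difference in the HOX genes. Over the 9 late pregnancy libraries 16 members were tested with edgeR and 0 were called, beside 0% of all 13747 genes tested. None had an unadjusted p under 0.05, and the smallest was 0.285. The summed HOX level was 17.2 to 20.4 CPM in the sub-maintenance group, 16.4 to 20.9 in the maintenance group and 16.2 to 21.1 in the ad libitum group (n = 3 each), so the groups overlap almost wholly. HOXD8 averaged 2.99, 2.49 and 2.75 CPM in the same order. For the interaction of state and dam feed 17 members were tested and 0 called, beside 0% of 14073 genes, with the smallest unadjusted p 0.118, for HOXD4. DESeq2 called 20 and 21 genes in these 2 tests and 0 of them were members. With 3 pools a group in late pregnancy and 2 in lactation, these tests can miss moderate differences.

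Cofactors of HOX proteins were called in both directions. Of 9 TALE cofactors 7 were tested, of which 2 fell and 3 rose in lactation (median log2 change −0.20, beside −0.03 for all genes tested). PBX3, a cofactor that steadies HOX proteins on DNA, rose (log2 change 0.36, SE 0.11, adjusted p = 0.0078, edgeR), as did PKNOX1, a relative of the MEIS genes (0.36, SE 0.13, adjusted p = 0.0182). PBX2 fell slightly (log2 change −0.20, SE 0.06, adjusted p = 0.0079). MEIS3 fell (log2 change −1.09, SE 0.34, adjusted p = 0.0077, edgeR), with overlapping ranges of 0.517 to 1.24 CPM in late pregnancy and 0.136 to 0.789 in lactation. With at most 7 reads in any lactation library, it passed the filter through its late pregnancy reads, the limit given for the HOX genes. MEIS1 and MEIS2 were not called, with log2 changes of −0.29 and −0.38.

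The regulators of HOX clusters were read from the same fit. The CDX genes, which switch on HOX genes in the embryo, had no read. Of the retinoic acid receptors, which bind at HOX enhancers, RARG fell (log2 change −0.81, SE 0.10), and RARA (0.12) and RARB (−0.62) were not called. Of 15 chromatin regulators 6 fell and 4 rose. EZH2, the Polycomb enzyme that writes a repressive histone mark, rose (log2 change 0.74, SE 0.06), whereas its partner EED fell (log2 change −0.68, SE 0.08) and its partner SUZ12 was not called (log2 change −0.18). In all, 9 of 25 tested cofactors and regulators fell and 7 rose, shares near the 35.2% and 33.1% of all genes tested, so the counts are no result about these lists. They turned to 25 and 0 with library size alone as the scaling and left 4 rising with upper quartile scaling.

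Of the genes that flank the clusters 14 were tested, and 3 fell and 6 rose, beside 35.2% and 33.1% of all genes tested (median log2 change 0.19, beside −0.03). The counts became 13 and 0 with library size alone. On the HOXA side SNX10, a sorting nexin, rose, with 2.78 to 4.80 CPM in late pregnancy and 11.6 to 20.4 in lactation (log2 change 2.00, SE 0.15, adjusted p = 2.4e-10, edgeR). On the HOXB side SKAP1, an adaptor of T cells, fell (log2 change −1.88, SE 0.16). Beside HOXD, the cluster with the largest ratio between the states, MTX2 rose slightly (log2 change 0.28, SE 0.06) and KIAA1715 was not called (0.06).

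Homeobox genes outside the clusters were read in the same fit. Of 47 with a row, 20 were tested, and 10 fell and 2 rose, beside 35.2% and 33.1% of all genes tested (median log2 change −0.46, beside −0.03). Among the falls, LHX6 had at most 5 reads in a lactation library and TSHZ3 at most 4. Such genes passed the filter through late pregnancy, so the count of falls says little about homeobox genes. The count of falls was 6 with dam feed and pool number as a block and 6 among libraries named for lane 7. The counts became 20 and 0 with library size alone. SATB1, a chromatin organizer of lymphocytes and other cells, fell most (log2 change −1.95, SE 0.12), and IRX3 (−0.91, SE 0.11), IRX5 (−0.71, SE 0.08), BARX2 (−0.83, SE 0.13) and ZEB1 (−0.79, SE 0.11) also fell. IRX2 (0.86, SE 0.08) and IRX1 (0.74, SE 0.09), which lie in another cluster of the same family than IRX3 and IRX5, rose.

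Markers of cell types were also compared, beside 35.2% of all genes tested called lower and 33.1% called higher. The lists are short, so their counts say little where they lie near those shares. Of 9 tested fibroblast markers 7 fell and 0 rose, and their summed level was 1691 to 2634 CPM in late pregnancy and 919 to 1355 in lactation. Of 6 endothelial markers 4 fell (222 to 304 CPM summed against 166 to 229), and all 4 tested lymphocyte markers fell (29.8 to 44.2 against 9.77 to 14.5). Of 9 luminal markers 1 fell and 5 rose, with sums of 1547 to 1902 CPM against 2547 to 2756. Of 7 myoepithelial markers 2 fell and 3 rose (558 to 632 CPM against 531 to 786). Adipocyte markers had 0 falls and 1 rise in 4 (225 to 430 CPM against 310 to 398), macrophage markers 2 falls and 1 rise in 4 (48.2 to 62.3 against 45.5 to 60.2), and skeletal muscle markers 1 fall in 2 (5.24 to 26.0 against 5.15 to 13.8). No marker was at 0 in every library. The part of these shifts in the HOX values was not tested.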

How the data were processed

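Total RNA of mammary biopsies was pooled and sequenced as paired reads in 15 libraries (Illumina TruSeq v2, which does not mark strand). The authors mapped reads to the sheep genome in CLC Genomics Workbench (build Oar v3.1 in the labels, while the methods name a later version). They deposited counts of reads on exons and whole genes, not normalized, and RPKM, recomputed here to within 3.5e-07 of its size. The authors also deposited quantile-normalized RPKM, used here as a score, with the same sorted values in every library. Deposited columns with the authors' own fold changes, p-values and false discovery rates were not used. Per the labels each library ran on 2 lanes whose reads were combined.

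Exon counts (whole-gene counts for the 5583 features with no transcript) were scaled by TMM, filtered by filterByExpr and compared with edgeR 4.0.16 (R 4.3.3) by its quasi-likelihood test, with no covariate. Benjamini-Hochberg adjustment ran over all tested genes, and a gene was called at an adjusted p under 0.05. The SE and the 95% interval are those that give the p of the test. Intron reads are whole-gene less exon reads. Dam feed and its interaction with state were tested by the same method. The scripts were tested on simulated data. DESeq2 1.42.0, limma 3.58.1 (pseudocount 1) and other scalings, filters and sets of libraries were the alternatives. Libraries are pools, so p-values measure the spread between pools. Ewes were sampled again in lactation, and the main test does not model this, since it treats all libraries as independent. Nothing says that equal pool numbers are the same ewes. Reads carry no molecular identifiers. Genes named were those called with a log2 change above 1 in size, the highest of each cluster, group 9, and the extremes, PBX and MEIS members of each list; HOXC4, HOXC8, HOXB6, HOXC10 and the remaining genes were chosen after their values were seen. Of listed symbols, some of which can name the same gene, 4 of cofactors or regulators, 4 of flanking and 2 of homeobox genes matched no row. These symbols were not analysed here. Of the marker symbols, 6 of 7 endothelial, 4 of 5 macrophage and 4 of 6 skeletal muscle ones had a row. Some genes that this rule would name are not reported here. The members and lists were chosen with earlier results of these data known.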

Additional observations from a re-analysis of the deposited data

Results flagged for a closer look

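In lactation HOXB7 stood at 0.352 CPM in replicate 2, from 2 reads, while the other 5 libraries lay between 0.879 and 1.04 CPM. The gap to the nearest library was 0.762 of the range of the 6, which is wide by Dixon's criterion. Of 24 groups of values checked this was the 1 that stood out, and chance flags about 1 in 20 groups. Whether it is more than the counting error of 2 reads was not tested.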

How the results depend on the processing

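The count of HOX genes called lower, 6 as reported, was 11 with library size only (median change of all genes −1.94) and 10 with upper quartile scaling (median −0.18). It was 3 among libraries named for lane 7, 5 to 7 when each library was left out in turn, and within 1.5 times of 6 in the other alternatives. With the replicate block, on dam feed and pool number, it was 4, and HOXA5 (adjusted p = 0.0549) and HOXD4 (0.0528) were not called. For libraries of equal dam feed and number, the correlation r between their deviations from the state means was weak, −0.045 to 0.12 over 6 pairs. Whether such libraries hold the same ewes is not stated. HOXC6 turned to −1.66 with library size only and to −0.0012 without lactation replicate 6 (up to 0.41 without lactation replicate 1). At least 10 reads in every library left 0 HOX genes to test. Expressed HOX genes numbered 5 in late pregnancy, 0 in lactation and 0 in the 2 states together, and in the same order 14, 0 and 0 at 0.5 RPKM, 30, 27 and 27 at 1 read in any library, 4, 2 and 2 by quantile-normalized RPKM, and 9, 2 and 2 without milk protein reads. Library size only gave 25 lower and 0 higher cofactors and regulators, 13 and 0 flanking genes, and 20 and 0 other homeobox genes. Higher cofactors and regulators were 4 with upper quartile scaling and 4 among libraries named for lane 7 (5 to 8 without 1 library each). Other homeobox genes called lower were 6 with the replicate block and 6 among libraries named for lane 7 (8 to 12 without 1 library each), and 4 were called higher with no filter. With upper quartile scaling 63.7% of all calls were lower, against 51.6% as reported. The causes were not tested. In lactation 49 to 133 HOX reads per library limit what can be seen of any member.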
